A study of Mus musculus with 15 samples.

Results

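Ventricles of 6 mice were compared, 3 after 7 days and 3 after 12 hours on doxycycline, out of 15 mice in the series. The mice were chosen by their labelled time point alone. All 6 carried the same 2 transgenes (MHCrtTA/TRECUGBP1): the reverse tetracycline activator rtTA under the alpha myosin heavy chain promoter, which is active in cardiomyocytes, and human Celf1 (LYLQ isoform, Flag tag at the N-terminus) under a promoter that rtTA switches on when doxycycline is present. They were 20 to 22 weeks old, had food with 2 g/kg doxycycline after 2 to 3 hours without food, and were killed at the labelled time. Blood was washed out with buffer, the atria and some of the apex were trimmed off, and polyadenylated RNA of the remaining ventricle was sequenced. The 12 hour mice were themselves induced and no mouse without the Celf1 transgene entered the comparison, so the time since Celf1 was switched on and the time on doxycycline food cannot be told apart. Values are RPKM, read counts scaled by the authors to gene length and library size, and each difference is that of log2(RPKM + 1), 7 days minus 12 hours, with the standard error of a limma fit. Depth was estimated at 16.6 to 42.8 M reads per column of the deposited table. Nothing in the labels says how the mice of a group were related or housed, so p-values measure the spread between these 6 mice.

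Celf1 is an RNA-binding protein that regulates splicing and the lifetime of messages with GU-rich stretches, and it is raised in the hearts of people with myotonic dystrophy type 1. The adult ventricle draws most of its energy from fatty acids burned in mitochondria, and its cardiomyocytes hold specialised isoforms of contractile proteins, ion pumps and enzymes. In an injured ventricle macrophages gather, fibroblasts lay down collagen, and cardiomyocytes switch on natriuretic peptide genes while adult isoforms decline.

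Celf1 itself was lower at 7 days than at 12 hours. It stood at 37.9, 30.9 and 29.5 RPKM in the 7 day mice A3269, A3283 and A3345, against 220, 351 and 345 RPKM in the 12 hour mice A3252, A3258 and A3276. Every 7 day value lay below every 12 hour value, with a difference of -3.16 ± 0.21 (limma, adjusted p = 1.03e-07). The exact two-sided permutation test over the 6 mice gave p = 0.1, the smallest it can give for 3 mice against 3. At the times between, Celf1 was at 416, 295 and 423 RPKM after 24 hours and at 159, 179 and 181 RPKM after 72 hours, so the 7 day mice had the lowest values of the 4 induced groups. Celf1 lies on the plus strand of chromosome 2 (mm9, chr2:90780539-90859654). The table has 1 value for Celf1, and how reads of the human transgene were counted in it is not given in the sources used here.

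A large share of all genes differed between the times. Of 10947 genes with a mean of at least 1 RPKM, 5511 passed an adjusted p of 0.05 (limma with Benjamini-Hochberg adjustment over all of them), which is 50.3%. As deposited, 3901 of them (35.6%) were higher and 1610 (14.7%) lower at 7 days, and the median difference of all tested genes was 0.31. After median-of-ratios scaling, which brought that median to 0.03, 2512 genes (22.9%) were higher and 2532 (23.1%) lower (46.1% in all), so the split between the directions depends on the scaling. Differences below are read against the median of 0.31. The 20 genes with the highest levels at 12 hours held 8.63% to 9.48% of all summed RPKM in the 7 day mice, against 19.5% to 21.6% in the 12 hour mice, and the part of this in the median shift was not tested. To name changes on both scales, a gene was called over 2-fold where it passed the test and differed by at least 1 on the log2 scale both as deposited and after the median was subtracted: 1196 genes (10.9%) were then higher and 779 (7.12%) lower, 1975 (18%) in all. The rises reached further than the falls, with 38 genes at least 16-fold higher and 3 at least 16-fold lower on the log2(RPKM + 1) scale. All 3 values at 7 days lay outside the 3 values at 12 hours for 6379 genes (58.3%), above them for 4438 (40.5%) and below them for 1941 (17.7%).

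**Figure D1:**
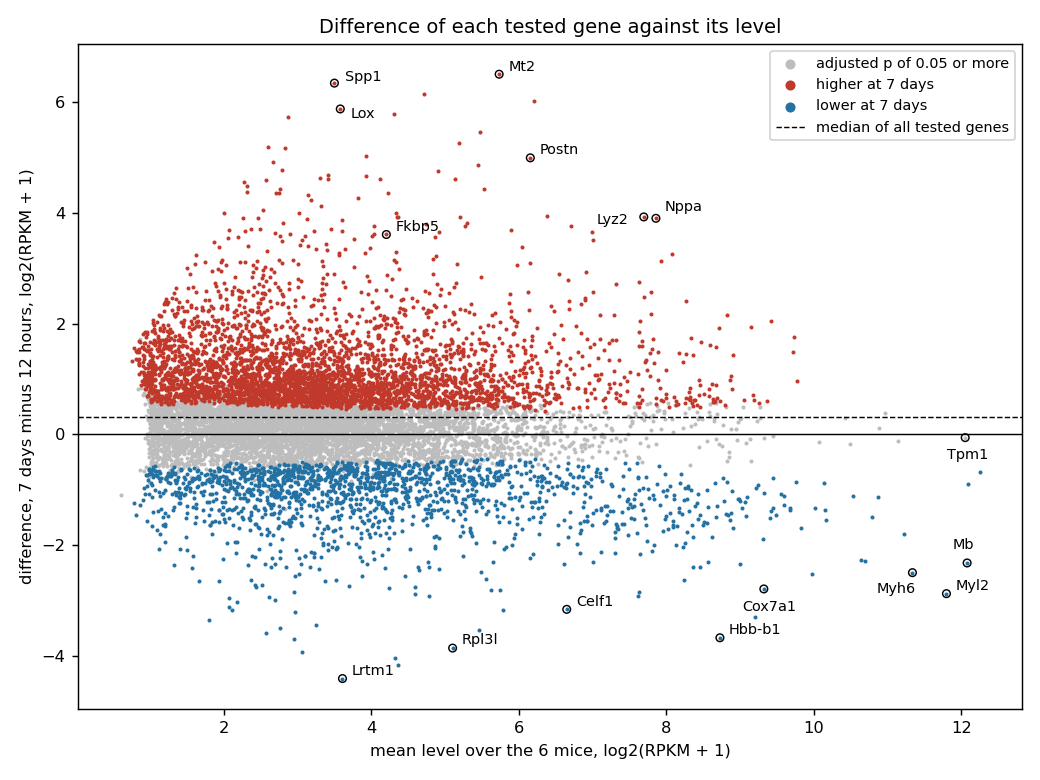
The horizontal axis gives the mean level of each of 10947 genes over the 6 mice and the vertical axis its difference between 7 days and 12 hours, both in log2(RPKM + 1), with genes past the test in red (higher at 7 days) or blue (lower). The most abundant genes of the ventricle, such as Mb, Myl2 and Myh6, lie below 0, and the largest rises, such as Spp1 and Lox, belong to genes of middle or low mean level.

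The columns of the table carry 6-digit codes whose meaning is not stated, and 2 codes occur at both times. Within one of them the median difference was 0.42 and within the other it was 0.26. The 7 day mice A3283 and A3345 had 2 columns each, and 3.49% of genes for A3283 and 0.238% for A3345 differed by over 2-fold between them, against 24.7% between the times. Genes with little G and C differed most often upward: 1597 of 3568 genes in the low GC class (33.4% to 46.8% GC in exons) were higher at 7 days and 363 lower, against 1058 higher and 619 lower of 3568 in the high GC class (53.1% to 72.8%). Differences between the repeat columns of a mouse also followed GC content, with Spearman's rho of 0.39 for A3283 and 0.67 for A3345, against -0.15 between the times. These are correlations across genes, which are not independent replicates.

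Among the 15 largest rises were genes for secreted proteins of the matrix. Spp1, which codes for the secreted matrix protein osteopontin, had 83.1, 79.8 and 153 RPKM in the 7 day mice, against 0.26, 0.19 and 0.32 RPKM in the 12 hour mice. Its difference of 6.34 ± 0.24 (adjusted p = 1.51e-09) left no overlap between the groups. Timp1, an inhibitor of matrix metalloproteinases, had 144, 245 and 301 RPKM at 7 days, against 3.02, 2.30 and 1.26 RPKM at 12 hours. Lox, the enzyme that cross-links collagen and elastin, had 67.6, 96.7 and 113 RPKM at 7 days and stayed at 0.49 to 0.63 RPKM at 12 hours. Both rose, by 6.15 ± 0.27 for Timp1 and 5.87 ± 0.21 for Lox. Spp1 and Lox, under 1 RPKM in every 12 hour mouse, passed the filter only through their 7 day values.

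The protease inhibitor Serpina3n had 386, 785 and 691 RPKM at 7 days, against 8.03, 7.85 and 8.75 RPKM at 12 hours. Serpina3n belongs to a family of near-identical neighbours, so how reads were split among them is uncertain. Nmrk2, a muscle kinase that makes an NAD precursor from nicotinamide riboside, had 198, 197 and 286 RPKM at 7 days, against 4.30, 5.08 and 5.36 RPKM at 12 hours. These 2 genes rose by 6.01 ± 0.24 and 5.25 ± 0.20, with adjusted p of 1.55e-09 and 1.51e-09. In the mm9 annotation 14.7% of the exon bases of Nmrk2 overlap a gene on the opposite strand, and no source used here says whether reads were counted by strand.

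Several genes of activated macrophages were at or near 0 at 12 hours. Chil3, a chitinase-like lectin of alternatively activated macrophages, was listed at 0 in all 3 mice at 12 hours and stood at 41.0, 69.6 and 49.4 RPKM at 7 days. Arg1, the arginase of the same cells, was also listed at 0 in the 3 mice at 12 hours, and stood at 13.5, 52.8 and 60.1 RPKM at 7 days, lowest in A3269. Gpnmb, a glycoprotein of phagocytes with many lysosomes, had 64.0, 13.6 and 42.8 RPKM at 7 days, against 0.17, 0.31 and 0 RPKM at 12 hours. Its difference of 4.91 ± 0.40 was 5.53 without the 7 day mouse A3283. Chil3, Arg1 and Gpnmb passed the filter only through their 7 day values. Lgals3 (galectin 3, 5.78 ± 0.27), the chemokine Ccl6 (5.46 ± 0.24), the metalloprotease Adam8 (5.17 ± 0.20), the siderophore-binding protein Lcn2 (5.02 ± 0.28), the matricellular protein Postn (4.99 ± 0.25) and the lysosomal protease Ctss (4.87 ± 0.21) were the other genes of these 15, each without overlap between the times.

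The gene with the largest rise coded for a metallothionein, a small protein that binds zinc and copper. Mt2 had 244, 782 and 671 RPKM in the 7 day mice, against 1.32, 9.79 and 5.97 RPKM in the 12 hour mice. The 7 day mouse A3269 and the 12 hour mouse A3252 were the lowest of their groups, and the difference of 6.50 ± 0.49 (adjusted p = 2.93e-07) was 5.87 without A3252. Its neighbour Mt1 had 350, 1081 and 974 RPKM at 7 days, against 53.6, 98.2 and 100 RPKM at 12 hours, a difference of 3.13 ± 0.36 (adjusted p = 1.31e-05). Both genes are known targets of the zinc sensor MTF1 and of glucocorticoids. Promoters of the 2 genes, which rose together, are shown from RefSeq (GRCm38.p6, plus strand, from 250 bases before to 50 bases after the start), with every match to TGCNCNC on either strand in capitals, a loose spelling of the metal response element.
Mt2, chr8:94172368-94172667: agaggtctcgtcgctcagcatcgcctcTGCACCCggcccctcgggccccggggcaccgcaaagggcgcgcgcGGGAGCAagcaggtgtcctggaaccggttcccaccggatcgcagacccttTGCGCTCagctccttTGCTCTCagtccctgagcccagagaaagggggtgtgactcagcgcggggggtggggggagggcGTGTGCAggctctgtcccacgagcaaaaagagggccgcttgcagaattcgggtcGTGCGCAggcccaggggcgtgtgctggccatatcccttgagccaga
Mt1, chr8:94178839-94179138: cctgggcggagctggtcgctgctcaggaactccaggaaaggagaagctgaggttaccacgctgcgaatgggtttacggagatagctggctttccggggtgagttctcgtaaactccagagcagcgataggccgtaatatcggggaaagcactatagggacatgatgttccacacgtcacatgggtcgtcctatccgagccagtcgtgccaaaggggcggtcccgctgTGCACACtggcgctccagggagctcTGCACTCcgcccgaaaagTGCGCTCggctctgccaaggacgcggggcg
The window of Mt2 holds 6 matches and that of Mt1 holds 3. These letters are common, since 64.1% of the 8779 tested genes with a promoter in the table have at least 1 match.

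**Figure D2:**
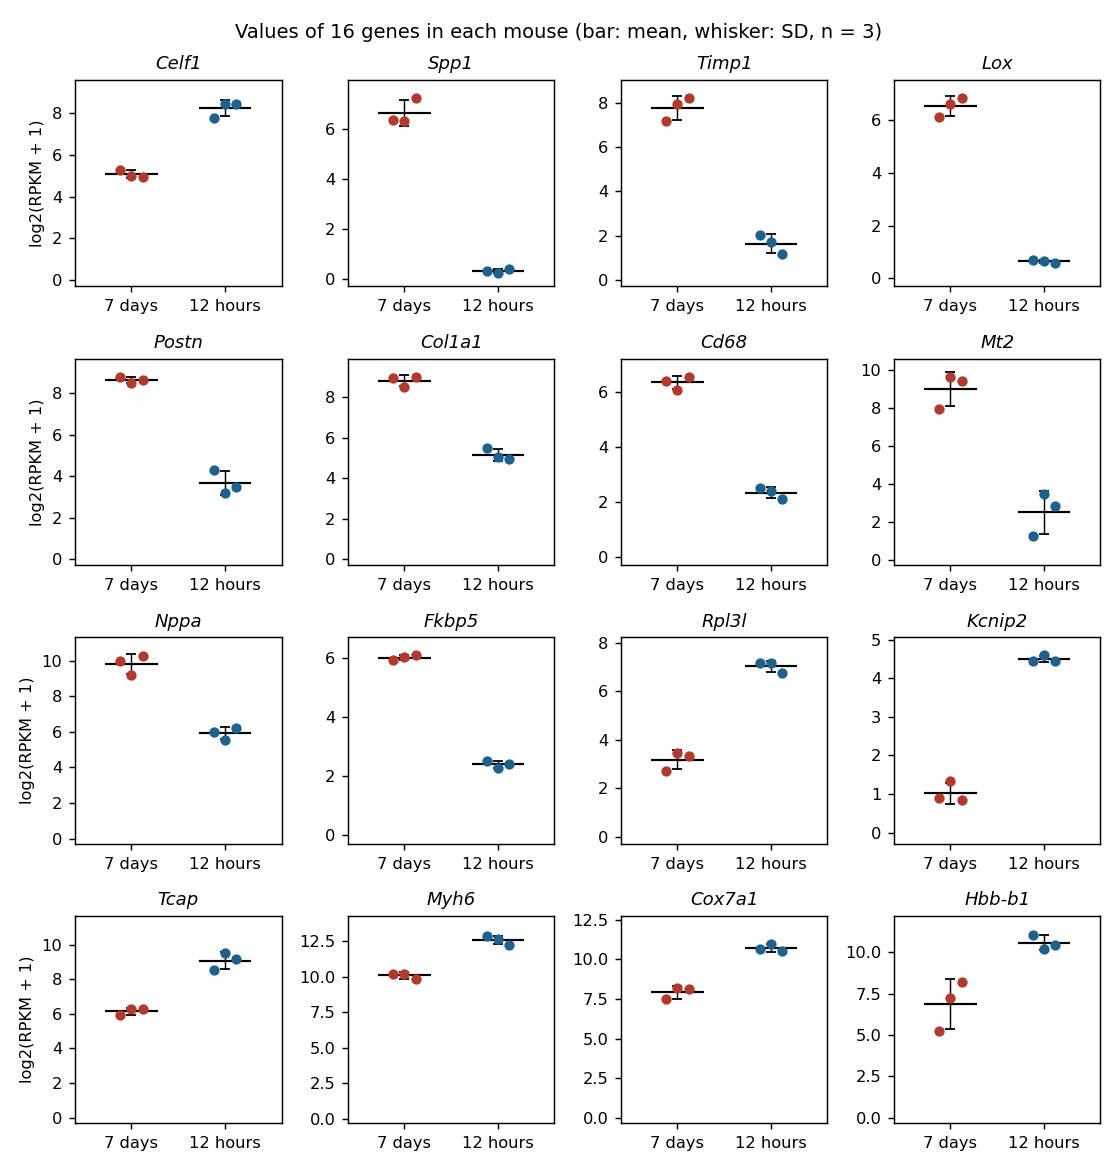
Each panel gives the values of 1 gene in log2(RPKM + 1) for the 3 mice at 7 days (left, red) and the 3 mice at 12 hours (right, blue), with the mean as a bar and the SD as a whisker. The groups are apart in all 16 panels, as for Spp1, with 79.8 to 153 RPKM at 7 days and 0.19 to 0.32 RPKM at 12 hours.

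All 17 tested collagen chains were higher at 7 days, against 35.6% of all genes. Collagens form the fibres and sheets of the matrix, and the median difference of the 17 was 2.12. Col1a1 and Col1a2, the 2 chains of the main fibre of scars, rose by 3.65 ± 0.21 and 3.52 ± 0.23. Col1a1 had 490, 358 and 513 RPKM at 7 days, against 44.2, 32.5 and 29.4 RPKM at 12 hours. Col3a1, the chain of the thinner fibre type III, had 1079, 653 and 826 RPKM at 7 days, against 124, 74.6 and 69.4 RPKM at 12 hours. The largest rise was in Col5a2, a chain of the type that starts fibre assembly, with 152, 125 and 152 RPKM at 7 days, against 11, 7.04 and 7.78 RPKM at 12 hours (3.92 ± 0.20). The smallest was 0.74, in Col15a1, a chain of the basement membrane zone. Col4a1 and Col4a2 of the basement membrane rose by 1.71 and 1.82. After scaling 15 of the 17 chains passed the test. Fibroblast markers, which include Col1a1 and Col3a1, were higher as well (6 of 8), and their part in the collagen values was not tested.

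Of 33 genes for matricellular proteins, matrix enzymes and their inhibitors 28 were higher and 1 lower at 7 days, with a median of 2.09. Tnc (tenascin C), a matricellular protein seen in healing tissue, had 31.3, 42.5 and 32.8 RPKM at 7 days, against 0.55, 0.18 and 0.26 RPKM at 12 hours. It rose by 4.78 ± 0.21 (adjusted p = 4.75e-09), but passed the filter only through its 7 day values. Fibronectin (Fn1, 3.79), the growth factor modulator Ccn2 (3.39) and thrombospondin 1 (Thbs1, 3.35) were also higher at 7 days. The lone lower gene was Spon2, a spondin (-1.56), named here after its value was seen. Serpinh1, the chaperone that folds procollagen in fibroblasts, differed by 0.12 and did not pass the test.

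Of 18 genes of TGF-beta and BMP signalling 14 were higher at 7 days and none was lower, against 35.6% and 14.7% of all genes. Their median was 0.94, and after scaling 10 were higher and 1 lower. The ligand Tgfb2 had 22.8, 29.4 and 26.1 RPKM at 7 days, against 2.68, 2.77 and 3.06 RPKM at 12 hours (2.81 ± 0.19, adjusted p = 1.15e-07). The ligand Tgfb1 rose by 1.56 ± 0.20 and the receptors Tgfbr1 and Tgfbr2 rose by 1.45 ± 0.22 and 1.53 ± 0.25. The repressor Tgif1 rose by 1.61 ± 0.20. The signal carriers Smad3 (-0.41) and Smad4 (0.35) did not pass the test.

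All 9 macrophage markers were higher at 7 days, with a median of 3.44. Cd68, a lysosomal membrane protein, had 82.4, 66.6 and 92.6 RPKM at 7 days, against 4.67, 4.28 and 3.29 RPKM at 12 hours (4.0 ± 0.20, adjusted p = 1.14e-08). Mrc1, the mannose receptor, rose by 3.91 ± 0.19 and the lysozyme Lyz2 by 3.92 ± 0.22. Csf1r, the receptor of the growth factor that keeps macrophages alive, had the smallest rise of the 9, at 2.28 ± 0.22. Itgam (0.63 to 1.04 RPKM at 12 hours) and Fcgr1 (0.33 to 1.13 RPKM) passed the filter only through their 7 day values. Summed over the 9 genes, the 7 day mice had 950 to 1262 RPKM and the 12 hour mice 60.9 to 99.2 RPKM. In tissue of many cell types, more cells of one type and more RNA per cell cannot be told apart, and neither can fewer cells and less RNA per cell.

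Complement followed the same direction, with 14 of 17 genes higher and 1 lower at 7 days and a median of 1.83. The lower gene, Cfd (-0.76), lost its call in several alternatives. These included the limma fit of all 15 libraries (adjusted p = 0.104) and that with GC correction (adjusted p = 0.105). The receptors of the small fragments C3a and C5a had the largest rises: C3ar1 had 45.1, 25.2 and 30.6 RPKM at 7 days, against 1.21, 1.32 and 1.3 RPKM at 12 hours, and C5ar1 rose by 3.58 ± 0.21. The 3 chains of C1q, the recognition part of the classical pathway, rose by 2.18 to 2.35, and the inhibitor Serping1 by 2.15 ± 0.18. Of 20 genes of acute inflammation 19 were higher and none lower. Ccl2, which draws monocytes from blood, had 23.8, 58.5 and 40.3 RPKM at 7 days, against 1.02, 0.84 and 1.45 RPKM at 12 hours (4.24 ± 0.28). The acute phase protein Saa3 rose by 4.05 ± 0.33 and the adhesion molecule Vcam1 by 1.66 ± 0.19, while Il1b, at 0.63, did not pass the test.

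Interferon response genes did not share this direction: 2 of 23 were higher and 3 lower, with a median of 0.03, and after scaling 0 were higher and 6 lower. The GTPase Igtp fell by 1.03 (SE 0.24, adjusted p = 3.37e-03), but missed the threshold in the fit of all 15 libraries and in that with the column code as a term, with adjusted p of 0.069 and 0.0677. The 2 calls upward, in the sensor Ddx58 (0.80) and in Ifit2 (0.79), were lost after scaling, with adjusted p of 0.0559 and 0.117, and without the 12 hour mouse A3258, at 0.0554 and 0.0736. Of 12 genes of antigen presentation 7 were higher and none lower, against 35.6% and 14.7% of all genes, and after scaling 5 were higher and 1 lower. Among the higher were the class II chains H2-Ab1 (1.53 ± 0.23) and H2-Aa (1.42 ± 0.24) and the costimulator Cd86 (1.55 ± 0.23).

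Markers of other cell types moved to different degrees. Of 8 fibroblast markers 6 were higher and none lower, summing to 1682 to 2197 RPKM at 7 days and 441 to 577 RPKM at 12 hours. Col1a1 (358 to 513 RPKM at 7 days) and Col3a1 (653 to 1079 RPKM) are 2 of those 8 and held a large part of the 7 day sum. Pdgfra, a surface receptor of fibroblasts, rose by 1.67 ± 0.23. Tcf21 (5.7 to 11.8 RPKM at 7 days, 6.2 to 7.6 RPKM at 12 hours) and Dpt (39.55 to 59.9 and 41.5 to 65.6 RPKM) overlapped between the times. Of 9 mural cell markers 7 were higher and none lower (6 and 2 after scaling), with 1.0 ± 0.18 for Tagln, a smooth muscle actin-binding protein. The mural list includes Des (1.49 ± 0.21), which cardiomyocytes also express. Endothelial markers showed 1 higher and 2 lower of 9, with a median of -0.21, and 0 higher and 5 lower after scaling. The higher call, of Vwf, was among those lost (adjusted p = 0.0646), and the lower call of Tie1 was lost in 8 of the 17 alternatives. Kdr, the main receptor of vascular endothelial growth factor, was lower in each 7 day mouse, at 20.7, 15.5 and 18.1 RPKM, against 49.9, 34.8 and 35.8 RPKM at 12 hours (-1.10 ± 0.20). Pecam1 differed by 0.49 ± 0.22 and did not pass the test (adjusted p = 0.0791). All 5 neutrophil markers that passed the filter were higher, with a sum of 23.2 to 37.2 RPKM at 7 days and 2.39 to 10.6 RPKM at 12 hours. Retnlg (0.25 to 0.47 RPKM at 12 hours) and Csf3r (0.20 to 0.66 RPKM) passed the filter only through their 7 day values. So did Mmp9 (0.57 to 1.18 RPKM at 12 hours). Camp and Ngp, at 0.41 RPKM or less in every mouse, were not tested. After scaling 4 of the 5 passed, without Mmp9 (adjusted p = 0.0566), which was also lost after quantile normalization (0.132), without a filter (0.0810) and without A3345, A3252 or A3276 (0.0901, 0.0662 and 0.0514), and Retnlg was lost after quantile normalization (0.0723). Both tested genes of the lymphocyte list, Cd3e and Ptprc, were higher. The T cell receptor subunit Cd3e had 6.76, 13.2 and 13.7 RPKM at 7 days, against 0.16, 0.70 and 0.17 RPKM at 12 hours. Cd3e too passed the filter only through its 7 day values. Ptprc had 6.0 to 13.4 RPKM at 7 days and 0.78 to 1.46 RPKM at 12 hours. The other genes of that list were under a mean of 1 RPKM, and Cd3d, the partner subunit of Cd3e, lay between 0 and 0.11 RPKM at 7 days and at 0 in the 12 hour mice.

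Transcripts of red blood cells were lower in the 7 day hearts. Hbb-b1 (beta globin) had 36.6, 151 and 293 RPKM at 7 days, against 2124, 1169 and 1385 RPKM at 12 hours. Hba-a2 (alpha globin) had 65.3, 255 and 389 RPKM at 7 days, against 1772, 1767 and 1972 RPKM at 12 hours. Mouse A3269 was lowest in both, and without it the differences of -3.67 ± 0.52 and -3.29 ± 0.45 were -2.84 and -2.54. Without A3345 that of Hbb-b1 was -4.32. Alas2, the haem enzyme of red cell precursors, fell as well, by 2.24 (SE 0.36). Globin genes have near-identical copies, so the split of reads among them is uncertain, and the part of residual blood in these values was not tested.

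**Figure D3:**
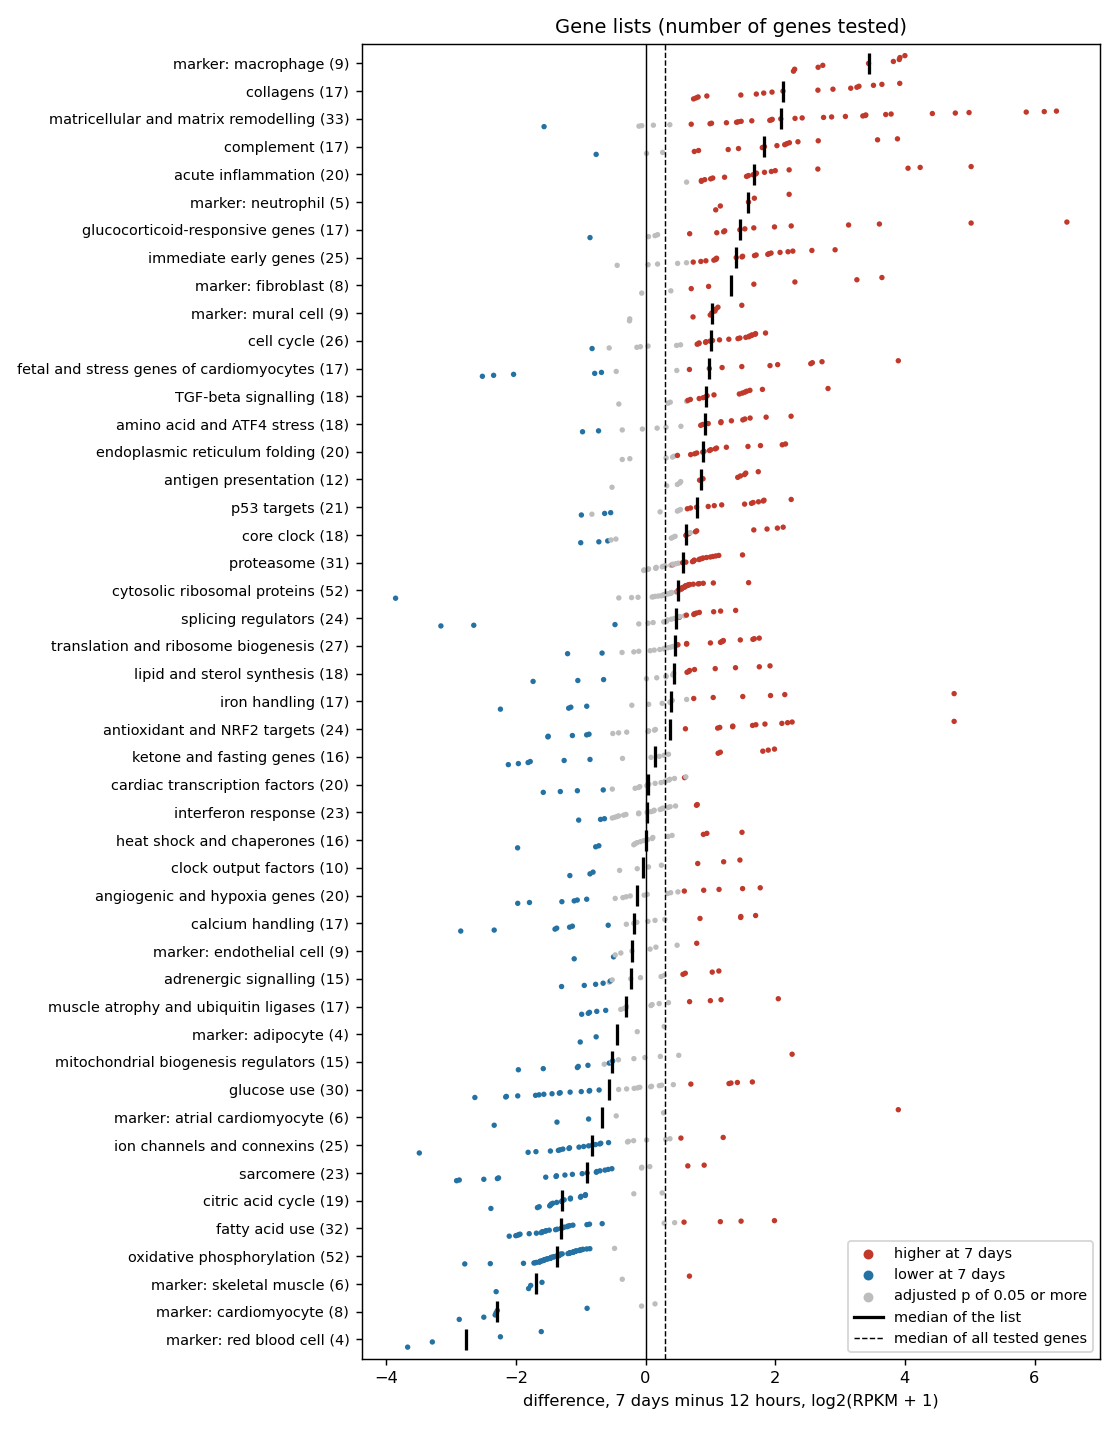
Each row is a gene list with at least 4 tested genes, each point a gene placed by its difference in log2(RPKM + 1) between 7 days and 12 hours, and each black bar the median of the list, with the dashed line at the median of all tested genes (0.31). Macrophage markers and collagens stand highest, with medians of 3.44 and 2.12, and red blood cell, cardiomyocyte and skeletal muscle markers and oxidative phosphorylation lowest, with medians of -2.76, -2.29, -1.68 and -1.37. Ckm is in both the cardiomyocyte and the skeletal muscle list.

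Most genes of oxidative phosphorylation, fatty acid use and the citric acid cycle were lower at 7 days. In oxidative phosphorylation 51 of 52 genes were lower and none higher, against 14.7% lower among all genes, and the median was -1.37. All 18 genes of complex I, which takes electrons from NADH, were lower, by a median of 1.46 and a range of -1.72 to -1.01. All 4 of complex II, 10 of complex IV and 12 of ATP synthase were lower too, as were 6 of 7 of complex III. The exception was Uqcrb of complex III, at -0.48 (adjusted p = 0.12), named here after its value was seen. The largest falls were in 2 subunits of complex IV specific to heart and muscle. Cox7a1 had 176, 292 and 278 RPKM at 7 days, against 1611, 2029 and 1454 RPKM at 12 hours, and Cox8b had 126, 148 and 189 RPKM at 7 days, against 668, 1030 and 754 RPKM at 12 hours. They fell by 2.79 (SE 0.23) and 2.39 (SE 0.22). Cardiomyocyte markers were lower at 7 days too (6 of 8, median -2.29), and their part in the energy genes was not tested.

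In fatty acid use 26 of 32 genes were lower and 4 higher, with a median of -1.30. The lower genes covered the path from uptake into the mitochondrion to the last step of beta oxidation. Fabp3, the fatty acid carrier of heart muscle, averaged 1307 RPKM at 7 days and 4511 RPKM at 12 hours (-1.79 ± 0.24). Cpt2, which rebuilds acyl-CoA inside the mitochondrion, had 22.8, 24.7 and 27.7 RPKM at 7 days, against 97.6, 105 and 93.5 RPKM at 12 hours (-1.94 ± 0.17, adjusted p = 1.22e-06). Acadm, the dehydrogenase of medium chains, had 141, 176 and 149 RPKM at 7 days, against 643, 666 and 505 RPKM at 12 hours (-1.95 ± 0.19). Etfa and Etfb, which carry the electrons of beta oxidation, fell by 2.10 (SE 0.18) and 2.00 (SE 0.22). The 4 higher genes were Angptl4, a secreted inhibitor of lipoprotein lipase (1.99), Fabp5 (1.47), Cpt1a (1.15) and the fatty acid transporter Cd36 (0.59).

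In the citric acid cycle 17 of 19 genes were lower and none higher, with a median of -1.28. Idh2, the mitochondrial isocitrate dehydrogenase that makes NADPH, averaged 145 ± 27.1 RPKM at 7 days and 762 ± 136 RPKM at 12 hours (SD, n = 3 each), a difference of -2.38 ± 0.21. Ketone and fasting genes were split, with 5 of 16 higher and 6 lower and a median of 0.15, and the largest fall was in Oxct1, which oxidises ketones (-2.12 ± 0.19). Glucose use was mixed, with 15 of 30 genes lower and 5 higher and a median of -0.56. The muscle forms of enolase and glycogen phosphorylase, Eno3 and Pygm, fell by 2.63 (SE 0.19) and 2.16 (SE 0.18). Pdk2, the kinase that holds back pyruvate dehydrogenase, fell by 1.97 (SE 0.17). The general phosphofructokinase Pfkp, by contrast, had 69.2, 59.6 and 68.7 RPKM at 7 days, against 22.7, 21.2 and 17.3 RPKM at 12 hours (1.65 ± 0.18).

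Among regulators of mitochondrial genes 7 of 15 were lower and 1 higher, with a median of -0.52, and after scaling 11 were lower and 1 higher. The estrogen-related receptors, which switch on genes of fatty acid oxidation and the respiratory chain in the heart, were both lower: Esrrg had 2.71, 3.52 and 3.87 RPKM at 7 days, against 12.1, 11.3 and 12.4 RPKM at 12 hours (-1.58 ± 0.20), and Esrra fell by 1.05 (SE 0.21). Ucp2, an uncoupling protein found in many tissues, was the higher gene (2.26 ± 0.22), while its muscle relative Ucp3 fell by 1.96 (SE 0.36). The letters AAGGTCA, the half-site that estrogen-related receptors bind, were searched on both strands of the promoters. They occurred in 6.51% of the 645 over 2-fold lower genes with a promoter, in 3.75% of the 934 over 2-fold higher ones and in 3.87% of all 8779. Of the 79 oxidative phosphorylation, citric acid cycle and fatty acid genes with a promoter 6 held them. The promoter of Acadm (GRCm38.p6, minus strand) is shown, as the gene of those lists with the largest fall that holds the letters, with the match in capitals.
Acadm, chr3:153944594-153944893: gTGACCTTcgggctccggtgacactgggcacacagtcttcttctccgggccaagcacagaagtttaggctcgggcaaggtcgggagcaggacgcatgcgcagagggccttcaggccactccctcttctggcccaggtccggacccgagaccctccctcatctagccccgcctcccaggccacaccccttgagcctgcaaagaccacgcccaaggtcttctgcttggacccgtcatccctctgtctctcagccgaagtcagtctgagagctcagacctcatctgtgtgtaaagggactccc
The match lies on the strand opposite to the gene, at the far end of the window.

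Contractile genes were lower as well, with 18 of 23 sarcomere genes lower and 2 higher and a median of -0.90. Myl2, the ventricular regulatory light chain, had 1011, 1849 and 1220 RPKM at 7 days, against 9527, 10900 and 8645 RPKM at 12 hours (-2.87 ± 0.25, adjusted p = 9.68e-07). Myh6, the fast heavy chain of the adult mouse ventricle, fell by 2.49 (SE 0.23), and Tnni3 (cardiac troponin I) by 2.29 (SE 0.21). Tcap, which ties titin to the Z-disc, had the largest fall of the list, with 59.5, 76.9 and 76.2 RPKM at 7 days, against 377, 728 and 565 RPKM at 12 hours (-2.91 ± 0.23). Not every abundant sarcomere gene moved: Tpm1 averaged 4214 RPKM at 7 days and 4419 RPKM at 12 hours, Actn2 634 and 662 RPKM in the same order, and neither passed the test. Of the 8 cardiomyocyte markers 6 were lower and none higher, and their sum was 7760 to 11210 RPKM at 7 days and 30270 to 40930 RPKM at 12 hours. The 2 that did not pass the test were Actn2 and the calcium release channel Ryr2 (0.15 ± 0.21).

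The letters CTA and TAG with any 4 bases between them were searched on both strands. They are a loose spelling of the site that MEF2 factors bind in muscle genes. Of 39 promoters of the sarcomere, cardiomyocyte marker and fetal gene lists 8 held these letters. They were in 7.29% of the over 2-fold lower genes, 2.14% of the over 2-fold higher genes and 3.92% of all tested genes with a promoter. Mybpc3, a thick filament protein that fell by 1.54 (SE 0.20), is shown as the gene with the largest fall among those 8 (GRCm38.p6, plus strand, match in capitals).
Mybpc3, chr2:91117894-91118193: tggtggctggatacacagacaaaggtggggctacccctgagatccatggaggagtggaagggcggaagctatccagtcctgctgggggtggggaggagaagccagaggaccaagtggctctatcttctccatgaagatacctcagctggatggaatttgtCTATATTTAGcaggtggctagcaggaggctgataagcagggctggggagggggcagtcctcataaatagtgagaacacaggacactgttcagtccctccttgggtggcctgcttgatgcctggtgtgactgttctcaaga
The same search for the AP-1 letters TGANTCA, bound by Fos and Jun proteins, found them in 10.6% of the over 2-fold higher genes, 7.13% of the over 2-fold lower genes and 6.46% of all. Of the 15 largest rises 13 had a promoter in the table, and Mt2 and Gpnmb held these letters. The Gpnmb promoter (GRCm38.p6, plus strand) has its match in capitals.
Gpnmb, chr6:49036268-49036567: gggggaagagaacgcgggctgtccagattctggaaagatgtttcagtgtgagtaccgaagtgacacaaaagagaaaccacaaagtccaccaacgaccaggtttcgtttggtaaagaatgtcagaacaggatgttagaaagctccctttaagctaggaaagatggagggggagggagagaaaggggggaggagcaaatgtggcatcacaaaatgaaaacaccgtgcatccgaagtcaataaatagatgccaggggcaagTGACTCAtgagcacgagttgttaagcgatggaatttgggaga
In none of the 5 promoters shown did the capitals overlap another of the motifs searched.

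Fetal and stress genes of cardiomyocytes split, with 10 of 17 higher and 5 lower at 7 days. The natriuretic peptides, hormones that a loaded heart secretes, were higher. Nppa had 1012, 575 and 1233 RPKM at 7 days, against 63.5, 45.2 and 71.8 RPKM at 12 hours (3.90 ± 0.27, adjusted p = 1.20e-07), and Nppb had 668, 430 and 543 RPKM at 7 days, against 99.6, 87.6 and 82.5 RPKM at 12 hours (2.57 ± 0.20). In the mm9 annotation 61.5% of the exon bases of Nppa overlap a gene on the opposite strand, whose reads cannot be told apart here. Fhl1, a sarcomere protein of hypertrophied hearts, had 396, 405 and 423 RPKM at 7 days, against 70.5, 58.4 and 55.0 RPKM at 12 hours (2.72 ± 0.17). The stress-induced nuclear factor Ankrd1 rose by 2.04 ± 0.19. Myh7, the slow heavy chain of the fetal ventricle, was listed lower. It had 434, 457 and 372 RPKM at 7 days, against 2679, 2630 and 1969 RPKM at 12 hours (-2.52 ± 0.20, adjusted p = 5.10e-07). Its fall was close to that of Myh6 (-2.49 ± 0.23), a gene similar in sequence. How reads were split between Myh6 and Myh7 is uncertain, so the fall of Myh7 itself is uncertain too. The difference of Acta1, the skeletal actin, was 0.68 ± 0.26 with an adjusted p of 0.0415, which was 0.218 after scaling and 0.112 to 0.191 without A3283, A3345, A3258 or A3276. Of the atrial markers other than Nppa, Myl7 fell by 1.37 (SE 0.21) and Sln by 2.33 (SE 0.47, or 1.57 without the 7 day mouse A3269).

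Ion channels and connexins had 17 of 25 genes lower and 2 higher, with a median of -0.82. Kcnip2, the subunit needed for the fast transient outward potassium current, had 0.85, 1.51 and 0.78 RPKM at 7 days, against 21.0, 23.3 and 20.9 RPKM at 12 hours (-3.49 ± 0.21, adjusted p = 4.01e-08). Both kinds of subunit of the potassium channel closed by ATP were lower: the pore Kcnj11 fell by 1.47 (SE 0.19) and the regulatory subunit Abcc8 by 1.69 (SE 0.20). Kcnj3, a pore of the channel opened by acetylcholine, fell by 1.81 (SE 0.20), with 31.1% of its exon bases overlapping a gene on the opposite strand. In calcium handling 7 of 17 genes were lower and 4 higher, against 14.7% lower and 35.6% higher of all genes. Hrc, a calcium-binding protein of the sarcoplasmic reticulum, fell by 2.85 (SE 0.22) and phospholamban (Pln), the brake on its calcium pump, by 1.37 (SE 0.19), while the sodium-calcium exchanger Slc8a1 rose by 1.47 ± 0.22. Of 20 cardiac transcription factors 15 did not pass the test, among them Gata4 (0.05), Tbx5 (0.03) and Mef2c (-0.09).

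The largest fall of all genes was in Lrtm1, a membrane protein with leucine-rich repeats, with 0.64, 2.12 and 2.62 RPKM at 7 days, against 55.3 ± 6.84 RPKM at 12 hours (mean and SD of 3 mice) (-4.41 ± 0.27, adjusted p = 4.12e-08). Yipf7, a Golgi protein, had 2.65, 3.08 and 6.63 RPKM at 7 days, against 96.0, 88.6 and 74.4 RPKM at 12 hours (-4.17 ± 0.26). Dhrs7c, an enzyme of the sarcoplasmic reticulum of striated muscle, had 3.53, 5.08 and 3.42 RPKM at 7 days, against 85.4, 93.7 and 64.1 RPKM at 12 hours (-4.03 ± 0.21). The ankyrin repeat ubiquitin ligase adaptors Asb14 (-3.93 ± 0.22) and Asb15 (-3.21 ± 0.22), the ephrin Efnb3 (-3.69 ± 0.20), Lrrc15 (-3.58 ± 0.21), the carboxylesterase Ces1d (-3.44 ± 0.21) and Zcchc10 (-3.17 ± 0.30) were also among the 15 largest falls, each without overlap between the times.

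Pairs of paralogs in which 1 form belongs to heart or striated muscle were set side by side, a list chosen after values were seen. In 18 of 18 pairs with both forms tested the muscle form had the lower difference. In 9 of them the muscle form was lower and the other form higher at 7 days. Since values were known when the pairs were picked, these counts only describe the pairs shown. The widest gap was in the ribosomal protein pair: Rpl3l, the striated muscle form, had 5.63, 10.1 and 8.97 RPKM at 7 days, against 140, 144 and 108 RPKM at 12 hours (-3.85 ± 0.22), while Rpl3, the general form, had 312, 341 and 410 RPKM at 7 days, against 138, 114 and 99.5 RPKM at 12 hours (1.59 ± 0.19). Rpl3l averaged 8.23 RPKM and Rpl3 354 RPKM at 7 days, and at 12 hours they averaged 131 and 117 RPKM. Among elongation factors Eef1a2 differed by -1.2 ± 0.18 and Eef1a1 by 1.75 ± 0.20. The phosphofructokinases Pfkm (-2.15 ± 0.19) and Pfkp, the carnitine transferases Cpt1b (-1.30 ± 0.18) and Cpt1a, the glucose transporters Slc2a4 (-1.32 ± 0.17) and Slc2a1 (1.32 ± 0.20), and the fatty acid binding proteins Fabp3 and Fabp5 (1.47 ± 0.23) went in opposite directions too. Actn2 and Tpm1 did not pass the test while Actn1 (2.63 ± 0.19) and Tpm4 (1.44 ± 0.23) were higher. The other forms are expressed in fibroblasts, macrophages or many cell types, whose markers were higher at 7 days, and the part of those cells in the pairs was not tested.

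**Figure D4:**
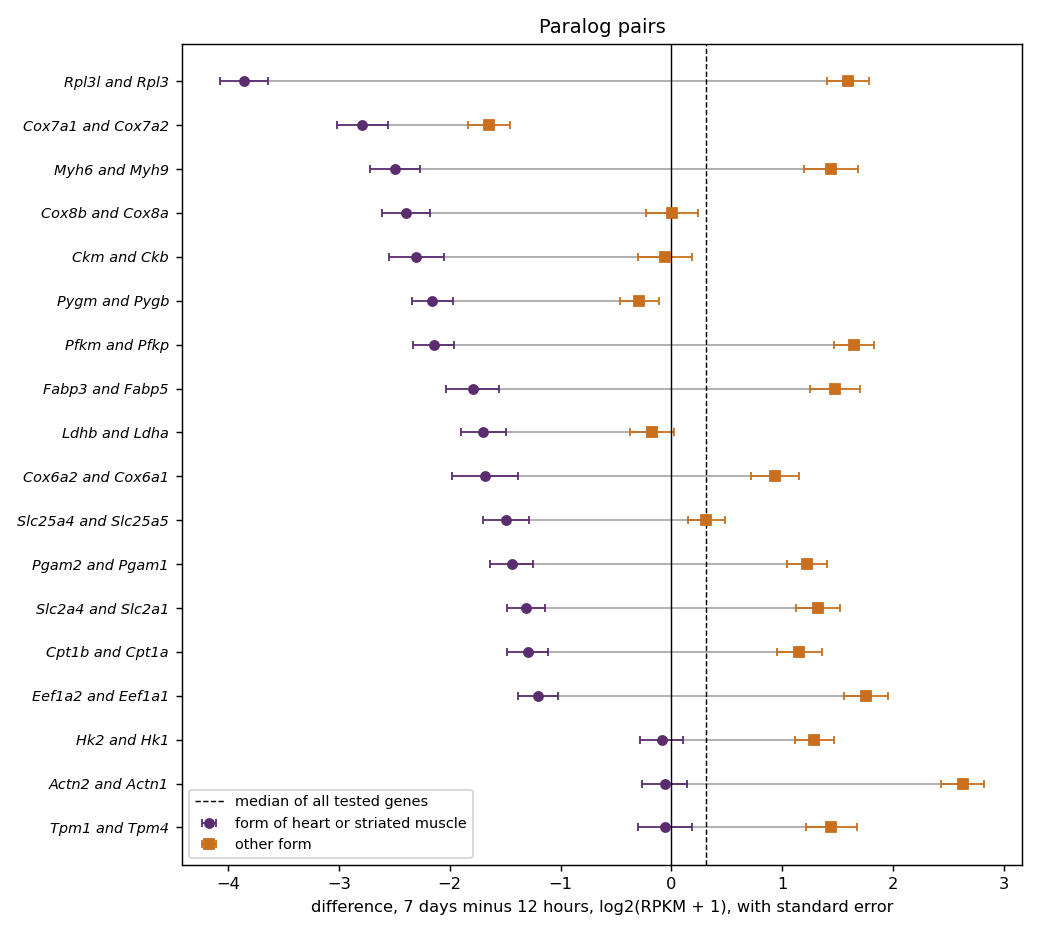
Each row is a pair of paralogs, with the form of heart or striated muscle as a circle and the other form as a square, placed by the difference in log2(RPKM + 1) between 7 days and 12 hours, with the standard error. The pairs were chosen after values were seen. The circle lies left of the square in all 18 rows, widest apart for Rpl3l (-3.85) and Rpl3 (1.59).

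Among stress responses, 20 of 25 immediate early genes were higher and none lower, with a median of 1.40. Socs3, the feedback inhibitor of cytokine receptors, had 9.68, 19.3 and 13.1 RPKM at 7 days, against 0.54, 1.64 and 0.72 RPKM at 12 hours (2.92 ± 0.28), and Myc rose by 2.57 ± 0.27. Of 17 genes that respond to glucocorticoids 13 were higher and 1 lower, against 35.6% and 14.7% of all genes. Fkbp5, a chaperone of the glucocorticoid receptor and one of its best known targets, had 59.2, 63.9 and 66.8 RPKM at 7 days, against 4.68, 3.81 and 4.36 RPKM at 12 hours (3.61 ± 0.18, adjusted p = 1.14e-08). Tsc22d3, another such target, rose by 1.21 ± 0.20, whereas Dusp1 (0.19) and Klf9 (0.05) did not pass the test. Hmox1, which breaks down haem, had 87.3, 237 and 180 RPKM at 7 days, against 5.93, 4.78 and 3.76 RPKM at 12 hours (4.76 ± 0.30), and the ferritin light chain Ftl1 rose by 2.15 ± 0.20. Of 20 genes of folding in the endoplasmic reticulum 15 were higher and none lower, led by the disulfide isomerase P4hb (2.16 ± 0.19), which is also a subunit of the enzyme that hydroxylates collagen, and by Edem1 (2.11 ± 0.19). Heat shock genes showed 3 of 16 higher and 3 lower, against 35.6% higher and 14.7% lower of all genes, and 1 higher and 6 lower after scaling. Hsph1 fell by 1.97 (SE 0.22).

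Of 21 p53 targets 13 were higher and 3 lower, against 35.6% and 14.7% of all genes, shares that also apply to the lists that follow here. The higher p53 targets included Cdkn1a (2.25 ± 0.32), an inhibitor of the cell cycle, and the death receptor Fas (1.66 ± 0.24). In the ATF4 and amino acid list 11 of 18 were higher and 2 lower, with 2.25 ± 0.26 for the stress hormone Gdf15 and 1.61 ± 0.20 for the amino acid transporter chain Slc3a2. Of 26 cell cycle genes 19 were higher and 1 lower. Ccnb2, a mitotic cyclin, had 8.85, 4.12 and 3.73 RPKM at 7 days, against 1.5, 0.43 and 0.42 RPKM at 12 hours (1.85 ± 0.31), and the kinase Cdk1 rose by 1.70 ± 0.30. The cyclins of early growth phase Ccnd1 (0.04), Ccnd2 (-0.56) and Ccnd3 (-0.08) did not pass the test. Of 31 proteasome genes 17 were higher and none lower, and after scaling 12 were higher and none lower. Of 52 cytosolic ribosomal proteins 25 were higher and 1, Rpl3l, lower, but after scaling 5 were higher and 3 lower, so their direction rests on the scale.

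In the core clock 9 of 18 genes were higher and 3 lower, against 35.6% and 14.7% of all genes. Per2, a repressor of the clock, had 5.03, 6.30 and 5.56 RPKM at 7 days, against 0.48, 0.57 and 0.81 RPKM at 12 hours (2.03 ± 0.21), and Per1 rose by 1.67 ± 0.28. The repressors Bhlhe40 and Bhlhe41 rose by 2.12 ± 0.20 and 1.87 ± 0.21. After scaling 6 clock genes were higher and 5 lower. The clock time of the harvests is not given in the sources used here, so its part in these values was not tested.

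Among 24 splicing regulators 9 were higher and 3 lower, which is near the shares of all genes (35.6% and 14.7%), the largest fall being that of Celf1 itself. Rbfox1, a splicing factor of muscle and neurons, had 0, 1.12 and 0.65 RPKM at 7 days, against 8.43, 8.81 and 8.33 RPKM at 12 hours (-2.65 ± 0.27, adjusted p = 3.60e-06). Its relative Rbfox2 differed by 0.60 and did not pass the test. Ptbp1, which represses muscle exons, rose by 1.39 ± 0.21. Celf2, the paralog of Celf1, had 30.3, 21.1 and 19.8 RPKM at 7 days, against 13.8, 9.87 and 9.06 RPKM at 12 hours (1.05 ± 0.22), and Mbnl1 (0.52) and Mbnl2 (0.79), which often act against Celf proteins on the same exons, were also higher. After scaling 4 of the 24 were higher and 3 lower. Of 2 GU-rich elements searched, the one with TTTG repeats was found in the 3' untranslated region of 388 of 10602 tested genes. Their median difference was 0.44, against 0.30 for genes without it. Within the low GC class, which holds 196 of the 388, the medians were 0.54 and 0.48. In the middle class, with 134, they were 0.29 and 0.24, and in the high class, with 58, they were 0.37 and 0.17. Genes with the element also had longer 3' untranslated regions, with a median of 2788 bases, against 1020 bases. The other element, a TG repeat, was in 750 genes, with a median difference of 0.325, against 0.305 without it. Its medians ran the other way in the low GC class, at 0.433 with it and 0.486 without, and in the middle class, at 0.191 and 0.260. In the high class they were 0.330 with it and 0.164 without.

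The times between 12 hours and 7 days, which the fit did not use, place most of this difference after 72 hours. Of the 1196 over 2-fold higher genes 156 had covered at least 50% of their difference by 72 hours, as had 62 of the 779 over 2-fold lower genes, against 4059 of all 10947 tested genes (37.1%), most of which differed less. Relative to 12 hours, the higher genes had a median difference of 0.18 at 24 hours, 0.30 at 72 hours and 1.75 at 7 days, and the lower genes -0.08, -0.23 and -1.38. These values share the 12 hour mice and the genes were chosen for the 7 day difference, so they are a description. None of the 17 collagens and none of the 9 macrophage markers had covered 50% by 72 hours, and Spp1 stood at 0.16, 0.85 and 0.79 RPKM then. Of the 52 oxidative phosphorylation genes 4 had. Other lists were further on, read against the 37.1% of all genes: 20 of 25 immediate early genes, 16 of 21 p53 targets, 24 of 31 proteasome genes and 13 of 20 acute inflammation genes had covered at least 50% by 72 hours. All 16 of those p53 targets went beyond their 7 day difference, and Trp53inp1 was at 42.2, 36.2 and 52.2 RPKM after 72 hours, against 10.6, 7.79 and 7.29 RPKM at 7 days and 1.8, 1.5 and 2.21 RPKM at 12 hours. Gdf15 also peaked then, at 13.8, 34.5 and 13.8 RPKM. The column codes of the 24 hour mice occur at no other time.

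**Figure D5:**
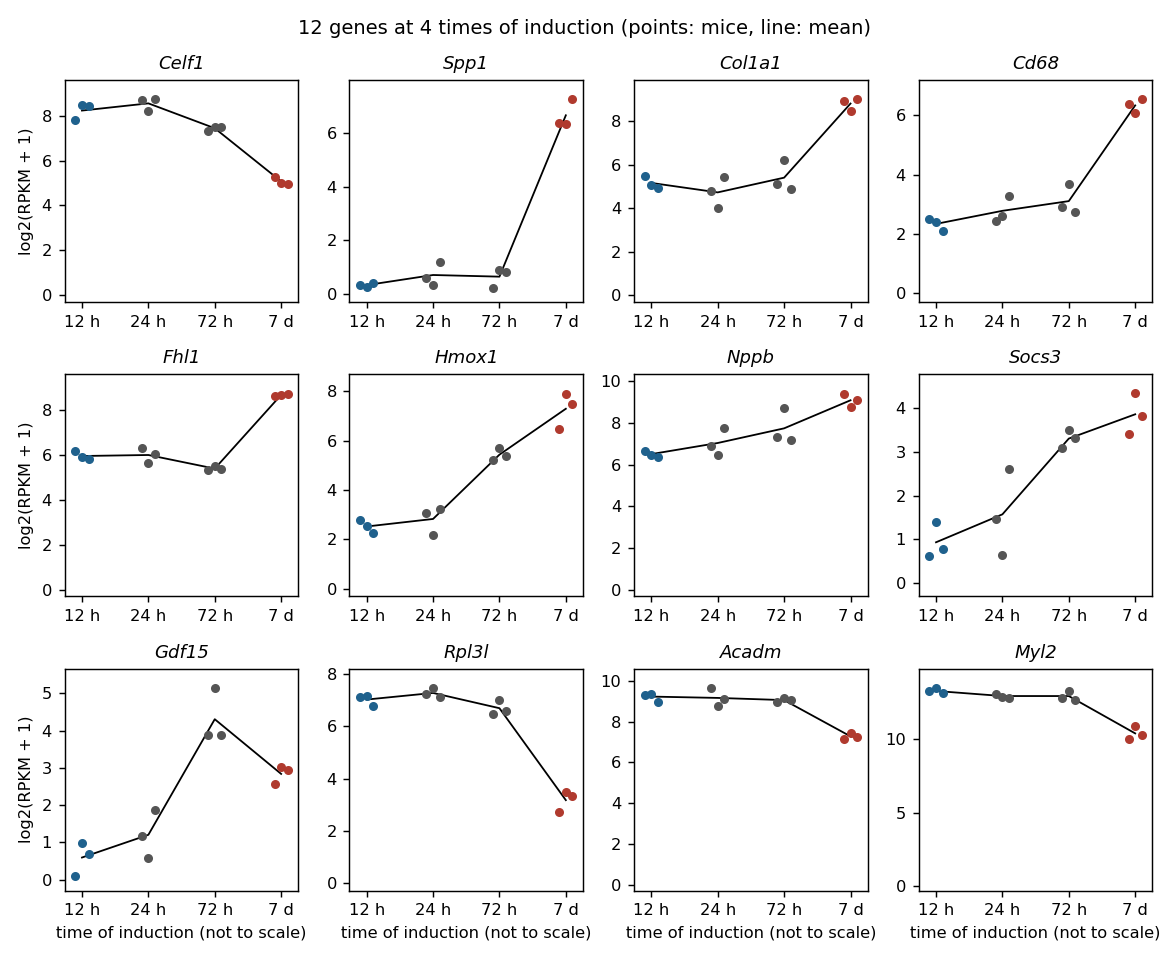
Each panel gives 1 gene in log2(RPKM + 1) at 12 hours, 24 hours, 72 hours and 7 days of induction, with a point for each of 3 mice and a line through the means. Spp1, Col1a1 and Cd68 stay near their 12 hour level until 72 hours and are high at 7 days, Rpl3l, Acadm and Myl2 are low at 7 days, Hmox1, Nppb and Socs3 are part of the way up at 72 hours, and Gdf15 is highest there.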

How the data were processed

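Ventricle RNA of 6 mice was used, and the other 9 mice entered only alternatives and values given by time. The authors deposited 1 table in RPKM with 2 decimals, 16042 genes and 20 columns. The submitters' processing notes name TopHat, Bowtie and the build mm9. No source used here gives versions, a counting tool or strand. Repeat columns of a mouse were averaged, so 8 columns gave 6 mice. RPKM are not counts, so no count model was used. Values were taken as log2(RPKM + 1), which understates changes of low genes, and 10947 genes averaging 1 RPKM or more in the 6 mice were tested with limma 3.58.1 in R 4.3.3 (lmFit, eBayes with trend, 4 residual and 9.54 prior degrees of freedom), adjusted by Benjamini and Hochberg over all of them. Depth was estimated from the smallest steps between values of low olfactory receptor genes. The fit and the depth estimate were tested on simulated data.

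Members, the 50 gene lists (897 entries tested) and tests were chosen with earlier results of these data known, and the 2-fold rule, the paralog pairs and the motif searches after values were seen. Named genes are Celf1, the 15 largest differences in each direction among called genes without overlap, and, from each list, up to 5 genes ranked first by p. Any other list member named was chosen after its value was seen. Symbols are those of RefSeq (GRCm38.p6) by gene ID for 15988 genes. GC content, exons and overlaps come from the mm9 annotation of GENCODE vM1 for 15591 genes, and promoters from RefSeq. List members such as Atp2a2, Mki67, Rbm20 and Hba-a1 were not analysed here, and some named genes are not reported here. Alternatives changed the scale (median-of-ratios or quantile), the pseudocount (0.1), the filter (none, or a mean of 5 RPKM), the variance model (robust), the samples (all 15 mice, each mouse left out, 1 column per mouse, shared codes) and the covariates (code, or GC by lowess with span 0.3). The code term was fitted on 16 columns, all but those of the 24 hour mice, with the mouse as a random block (correlation 0.287), and the 5 columns with shared codes needed no block.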

Additional observations from a re-analysis of the deposited data

How the results depend on the processing

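No paired analysis was possible because each replicate number names 1 mouse and occurs at 1 time. Under the 17 alternatives the genes past the threshold numbered 4077 (mean RPKM of at least 5) to 5851 (column code as a term), against 5511, and leaving out 1 mouse gave 4564 to 5653. Leaving out 1 mouse gave 3177 to 4213 higher and 1345 to 1550 lower genes. Scaling moved the split: 2512 higher and 2532 lower genes after median-of-ratios scaling and 2466 and 2687 after quantile normalization, against 3901 and 1610, since both bring the median difference of 0.31 to near 0 (0.03 and -0.01). Over 2-fold lower genes, 779, numbered 1274 and 1238 under those scalings. Of the 5511 calls 4122 and 4039 were shared with the same direction, and 1 was called in the opposite direction after quantile normalization. Celf1 kept its direction and its call under all 17. Of 238 other named genes 215 kept direction and side of the threshold in every alternative that tested them; with a mean RPKM of at least 5, 207 of the 238 were tested. The named genes that changed direction had an adjusted p over 0.05 in the fit as reported and in the one that reversed them: Myl4 was 0.040 with the code term, Fabp4 -0.043 after median-of-ratios scaling, Adipoq 0.075 with shared codes and S100b -0.24 after quantile normalization. Leaving out 1 mouse gave -0.29 to 0.043 for Adipoq and -0.20 to 0.66 for S100b. Fabp4 gained a call after quantile normalization (0.63, adjusted p = 0.00222), and Myl4 after median-of-ratios scaling (-0.77, adjusted p = 0.0135), quantile normalization (-0.71, adjusted p = 0.021) and without A3276 (-0.71, adjusted p = 0.0325). The cause was not tested. At 16.6 to 42.8 M reads per column, short genes near 1 RPKM rest on few reads.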

Other observations

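Other lists held single genes that differed and are not described above. Of 18 genes of lipid and sterol synthesis 8 were higher and 3 lower at 7 days, against 35.6% and 14.7% of all genes. After scaling 5 were higher and 3 lower, against 22.9% and 23.1%, so the counts lie near the shares of all genes. The sterol enzymes Idi1 (1.75 ± 0.29) and Sqle (1.39 ± 0.23) were higher, and Acacb, which makes the malonyl-CoA that restrains fatty acid entry, was lower (-1.73 ± 0.20). In adrenergic signalling the kinase Grk5, which switches off beta receptors, averaged 25.2 RPKM at 7 days and 11 RPKM at 12 hours, and the receptor Adra1b averaged 5.03 RPKM at 7 days and 13.4 RPKM at 12 hours. Among angiogenic genes Vegfb fell by 1.79 (SE 0.20) and the apelin receptor Aplnr by 1.97 (SE 0.31), while Hif1a rose by 1.77 ± 0.21. Igf1, a growth factor that macrophages and fibroblasts release, averaged 22.4 RPKM at 7 days and 3.65 RPKM at 12 hours (2.43, adjusted p = 1.5e-05), and was named after its value was seen. The limma fit with adjustment over all 10947 genes gave these values.

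Myosin heavy chain genes of skeletal muscle were also lower in the 7 day ventricles. Of 6 tested skeletal muscle markers 4 were lower and 1, Acta1, was higher, a call lost after scaling. The untested Tnnt3 (0.72 to 2.65 RPKM at 7 days, 0 to 0.09 RPKM at 12 hours) went upward. So did the untested Tnni2 (0.67 to 1.06 and 0.16 to 0.26 RPKM), while Mylpf and Pvalb, also untested, overlapped. Myh4 had 6.26, 12.1 and 6.49 RPKM at 7 days, against 41.3, 26.1 and 23.7 RPKM at 12 hours, and Myh2 had 0.71, 1.03 and 1.0 RPKM at 7 days, against 6.84, 5.64 and 4.67 RPKM at 12 hours. The neighbouring genes of this family are similar in sequence, so the split of reads among them is uncertain. In the 72 hour mice Myh4 was at 47.8, 49.0 and 55.2 RPKM.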
